A study of Homo sapiens with 12 samples.

Results

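The 10 genes described here were those that carry glucose into the cell and control the upper steps of glycolysis: the transporters SLC2A1 and SLC2A3, the hexokinases HK1 and HK2, the isomerase GPI, the phosphofructokinases PFKL, PFKM and PFKP, and the regulators PFKFB3 and PFKFB4. They were taken by symbol from the count table, which held all 10 among its 28278 genes. All 10 were among the 15916 genes that passed the filter on low counts. RNA-sequencing libraries came from WA26, a line of human embryonic stem cells (hESCs), either wild type (WT) or with UBQLN1 knocked out (KO) by CRISPR/Cas9. UBQLN1 encodes ubiquilin 1, which carries ubiquitinated proteins to the proteasome. Each of 4 groups held 2 libraries, namely untreated WT and untreated KO cells, both at 20% O2, then KO cells grown at 5% O2, and KO cells given N-acetyl-L-cysteine (NAC), an antioxidant. The comparisons ask whether the loss of UBQLN1, low oxygen or the antioxidant goes with other mRNA levels of these genes. WT cells at 5% O2 or with NAC were not analysed here, so each treatment was compared within KO cells only, and both treatments were compared with the same untreated KO libraries. The WT and KO cells were both grown from picked clones. The labels name neither the clone behind each library, nor a vehicle for NAC, nor a length of treatment. The labels also give no oxygen level for the NAC libraries. The study itself names DMSO as the vehicle and describes both treatments as kept up over many passages, but elsewhere places the RNA-seq of low-oxygen cultures after about a day, so the NAC and low-oxygen libraries may differ greatly in length of treatment. Nothing in the labels says that the 2 libraries of a group came from separate cultures, though the study describes 2 biological replicates per group for its low-oxygen RNA-seq. The p-values measure only the spread within these pairs of libraries, pooled over the 4 groups in 1 fit.

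Glucose enters these cells down its gradient through carriers of the SLC2A (GLUT) family. Hexokinases trap it as glucose 6-phosphate, GPI converts that to fructose 6-phosphate, and phosphofructokinase commits it to glycolysis by adding another phosphate. PFKFB enzymes make and break down fructose 2,6-bisphosphate, the strongest allosteric activator of phosphofructokinase. Pluripotent stem cells are known for a high rate of glycolysis even with ample oxygen, and hypoxia-inducible factors (HIFs) are known to raise transcription of many of these genes when oxygen is low.

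The libraries held between 31236968 and 41639350 counts, and the 2 libraries of each group differed by more than counting noise (chi-square divided by its degrees of freedom, 9.53 to 30.7). UBQLN1 mRNA was at 221 and 197 CPM (counts scaled to a common library size by the trimmed mean of M-values, TMM) in WT, 42.2 and 43.5 in KO at 20% O2, 51.9 and 47.7 in KO at 5% O2 and 62.4 and 49.3 with NAC, so that every KO library lay below both WT libraries. The 12 pluripotency markers summed to between 6148 and 7371 CPM, and none of them was at 0 in any library. The 8 endoderm markers summed to at most 4.46 CPM and the 8 mesoderm markers to between 57.3 and 126 CPM. Most of the mesoderm sum was KDR alone, at 48.9 to 121 CPM. The 8 neuroectoderm markers summed to 268 to 312 CPM in WT, 488 to 511 CPM in KO at 20% O2, 261 to 334 CPM in KO at 5% O2 and 156 to 178 CPM with NAC. Most of that sum was NES alone. NES was at 266 and 226 CPM in WT, 451 and 422 in KO at 20% O2, 212 and 287 at 5% O2, and 126 and 129 with NAC. The 12 fibroblast or stromal markers summed to between 523 and 638 CPM in 7 libraries and to 1022 CPM in NAC replicate 1, the only library in which none of the 12 was at 0. In all libraries THY1 (332 to 476 CPM) and COL1A2 (113 to 245 CPM) made up most of that sum. The collagen gene COL3A1 was at 29.1 CPM and the proteoglycan gene DCN at 47.2 CPM in that library, against at most 0.207 and 0 CPM in the other libraries. The part of these cells in the results below was not tested, and results with NAC are therefore given with and without that library where a call changed. In bulk RNA, fewer cells of a type and less RNA per cell cannot be told apart.

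Promoter letters were read because HIFs bind a short core, ACGTG or GCGTG. RefSeq promoter windows of GRCh38.p14 were available for 9 of the 10 genes (26 windows of 250 bases before a start site). Either strand held ACGTG in 6 of these windows, belonging to 5 genes, and GCGTG in 7 windows, belonging to 6 genes. Among all 35116 windows of the same length, 18.5% held ACGTG, 32.2% held GCGTG and 43.2% held at least 1 of them. The windows below are shown because HK2, PFKFB3 and PFKFB4 were the members with the largest differences between the treatments, and SLC2A1 had the smallest p at 5% O2. Capitals mark the letters of either core, read on the printed strand or on its reverse complement, overlapping matches included, and exonic bases of the windows were left out. Both HK2 windows held both cores. Of the 2 PFKFB3 windows, the one printed held CACGTG, which reads ACGTG on both strands, and the one before the first start site (chr10:6144671-6144920, not printed) held GCGTG but no ACGTG. In the other printed windows, PFKFB4 held GCGTG and SLC2A1 held neither.
HK2, chr2:74833877-74834126, plus strand, before the first start site: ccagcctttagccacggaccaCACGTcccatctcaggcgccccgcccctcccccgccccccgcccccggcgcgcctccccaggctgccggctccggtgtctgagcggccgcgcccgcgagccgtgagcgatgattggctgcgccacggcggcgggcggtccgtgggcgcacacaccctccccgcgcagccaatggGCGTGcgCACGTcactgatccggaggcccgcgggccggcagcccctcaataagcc
HK2, chr2:74834920-74835169, plus strand, before a start site inside the gene: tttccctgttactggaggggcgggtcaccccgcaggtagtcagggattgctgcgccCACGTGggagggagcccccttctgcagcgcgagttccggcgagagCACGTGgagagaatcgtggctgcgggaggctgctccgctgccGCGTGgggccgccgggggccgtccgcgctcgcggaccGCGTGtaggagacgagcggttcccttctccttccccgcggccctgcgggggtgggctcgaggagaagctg
PFKFB3, chr10:6202682-6202865, plus strand, before a start site inside the gene: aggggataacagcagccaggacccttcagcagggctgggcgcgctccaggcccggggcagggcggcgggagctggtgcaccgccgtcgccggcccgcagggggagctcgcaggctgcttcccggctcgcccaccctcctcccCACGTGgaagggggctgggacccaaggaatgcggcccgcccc
PFKFB4, chr3:48556924-48556982, minus strand, before a start site inside the gene: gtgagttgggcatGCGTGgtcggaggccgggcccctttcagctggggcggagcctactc
SLC2A1, chr1:42958894-42959118, minus strand, before the first start site: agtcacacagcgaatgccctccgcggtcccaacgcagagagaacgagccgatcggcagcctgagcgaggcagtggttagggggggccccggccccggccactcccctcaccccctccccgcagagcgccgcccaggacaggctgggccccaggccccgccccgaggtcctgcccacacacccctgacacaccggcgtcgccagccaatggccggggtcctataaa
These matches describe the letters alone, and binding was not measured.

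At 5% O2, all 10 genes had a positive log2 fold change against KO cells at 20% O2, and 8 of them rose by an adjusted p under 0.05, where 3.68% of all tested genes were called higher and 4.13% lower. SLC2A1, PFKFB4 and PFKFB3 rose more than 3-fold, HK2, SLC2A3, GPI, PFKP and PFKL rose less than 2-fold, and HK1 and PFKM did not pass the test. By the second criterion (an absolute log2 fold change over 1 with an unadjusted p under 0.05), 3 of the 10 genes passed, all higher, where 2.02% of all genes passed in either direction. The median log2 fold change was 0.64 over the 10 genes and 0 over all genes. Without either KO library at 20% O2, 3 genes were called (SLC2A1, PFKFB3 and PFKFB4), and without either KO library at 5% O2, 5 were called. The calls over all genes fell as well, to 29 higher and 12 lower without KO 20% O2 replicate 1, 42 and 46 without KO 20% O2 replicate 2, 31 and 5 without KO 5% O2 replicate 1, and 238 and 275 without KO 5% O2 replicate 2. When the smooth dependence of a library on the length and GC content of transcripts was taken out (called the trend below), 8 of the 10 were still called higher, while the calls over all genes went from 586 higher and 657 lower to 246 higher and 58 lower.

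With NAC, the 2 transporters rose, and HK2, GPI, PFKL and PFKP fell. Over all genes 23.8% were called higher and 20.8% lower in this comparison, so that 2 of 10 higher was near the background share and 4 of 10 lower was above it. None of the 10 passed the criterion of a log2 fold change over 1, where 9.02% of all genes did. The median log2 fold change was -0.25 over the 10 genes and 0.02 over all genes. With the length and GC trend removed, both transporters were still called higher and 0 of the 10 were called lower by edgeR's test, while the calls over all genes went from 3785 higher and 3315 lower to 2335 higher and 1705 lower. DESeq2 called 5 of the 10 lower, where it called 3523 of all 15916 genes lower. Without the filter on low counts, 6 of the 10 were called lower, where 3539 of 21141 genes were. In KO against WT cells at 20% O2, 0 of the 10 genes were called by edgeR's adjusted p. HK2, HK1 and PFKFB3 had an unadjusted p under 0.05. Their p-values ranked only 1562nd, 2132nd and 2163rd of 15916 genes, so many other genes had a p as small. Over all genes, 1.34% were called higher and 0.622% lower, and 2.57% passed the criterion of fold change and unadjusted p, which none of the 10 did. With the trend removed, these calls over all genes went from 213 higher and 99 lower to 99 higher and 94 lower.

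**Figure D1:**
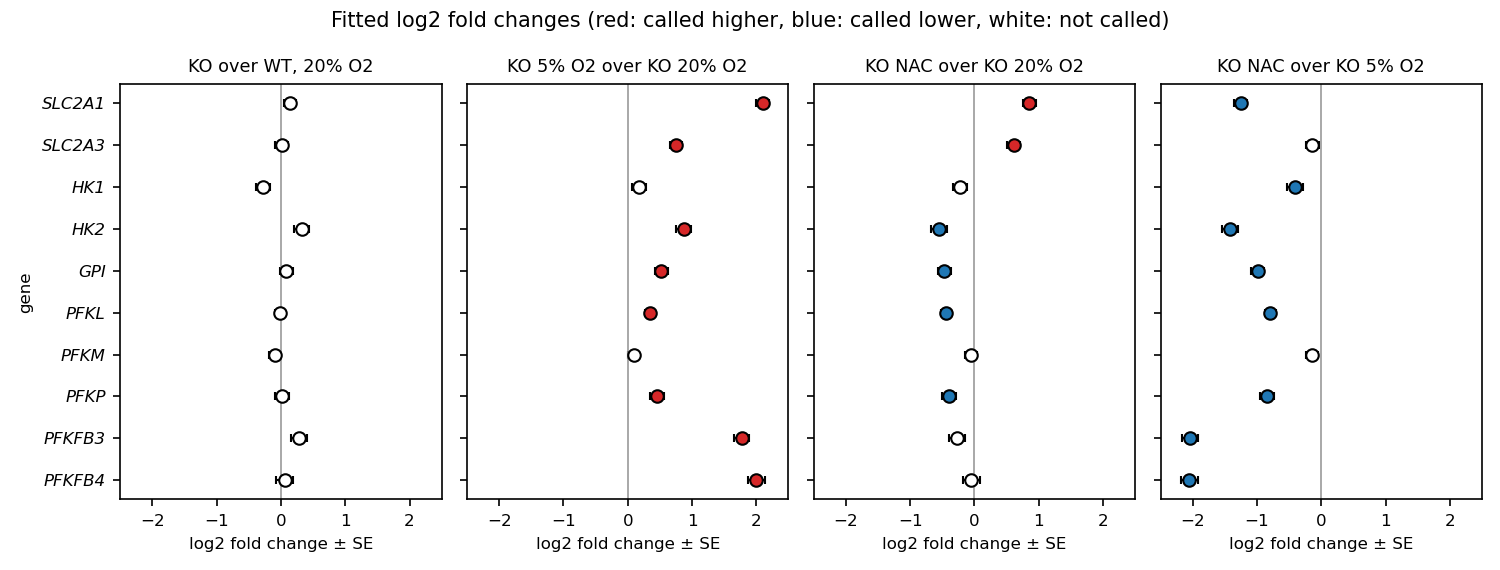
Log2 fold change (x axis) of each of the 10 genes (y axis) in 4 comparisons, with bars of 1 standard error from the edgeR fit of 8 libraries. Filled points passed an adjusted p under 0.05. All 10 points lie right of 0 at 5% O2, and with NAC the transporters lie right of 0 while HK2, GPI, PFKL and PFKP lie left of it.

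SLC2A1 and SLC2A3 encode GLUT1 and GLUT3, the carriers for basal glucose uptake. SLC2A1 (chromosome 1, from 42925353 to 42958868 on GRCh38) was at 198 and 208 CPM in WT, 218 and 228 CPM in KO at 20% O2, 933 and 985 CPM in KO at 5% O2, and 445 and 361 CPM with NAC. Both libraries at 5% O2 lay above all others, and both NAC libraries lay between them and the libraries at 20% O2. At 5% O2 the log2 fold change was 2.10 (standard error 0.10, edgeR adjusted p = 3.07e-06), the smallest p of all 15916 genes and the 49th highest fold change. With NAC it was 0.85 (standard error 0.10, edgeR adjusted p = 5.14e-05).

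SLC2A3 (chromosome 12, from 7919230 to 7936187) was at 816 and 759 CPM in WT, 790 and 791 CPM in KO at 20% O2, 1331 and 1322 CPM in KO at 5% O2, and 1359 and 1056 CPM with NAC. The treated libraries all lay above the untreated ones, and the NAC libraries lay on either side of those at 5% O2. The log2 fold change was 0.75 at 5% O2 (standard error 0.10, edgeR adjusted p = 0.0038) and 0.61 with NAC (standard error 0.10, edgeR adjusted p = 0.000601). At 5% O2 the call was lost without KO 20% O2 replicate 1 (edgeR adjusted p = 0.0877), without KO 20% O2 replicate 2 (0.0571) and without KO 5% O2 replicate 1 (0.0976). SLC2A3 shares sequence with its neighbour SLC2A14, and 45.1% of the 31-base words of its transcript occurred elsewhere in the genome, 37.3% at SLC2A14 itself. Reads that match several places were not counted, so the levels of both genes are uncertain. SLC2A14 was at 24.7 and 24.2 CPM in KO at 20% O2, 37.1 and 36.4 CPM at 5% O2 and 35.8 and 29.1 CPM with NAC, with log2 fold changes of 0.59 (edgeR adjusted p = 0.0178) and 0.41 (edgeR adjusted p = 0.0146).

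Levels of the 2 transporters were compared per kilobase of mean transcript length. SLC2A1 made up 35.0% ± 1.98 (SD, n = 2) of their sum in WT, 37.1% ± 0.75 in KO at 20% O2, 60.2% ± 1.04 in KO at 5% O2 and 41.2% ± 0.75 with NAC. The summed level was 2.65 times that of untreated KO cells at 5% O2 and 1.63 times with NAC, and in both cases the groups did not overlap. The share at 5% O2 did not overlap that at 20% O2, and the exact permutation test gave p = 0.333 (two-sided), the smallest that 2 against 2 libraries allow. Whether SLC2A1 exceeded SLC2A3 at 5% O2 depended on the length used, since its share there was 47.4% by the longest transcript and 42.2% by coding length.

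**Figure D2:**
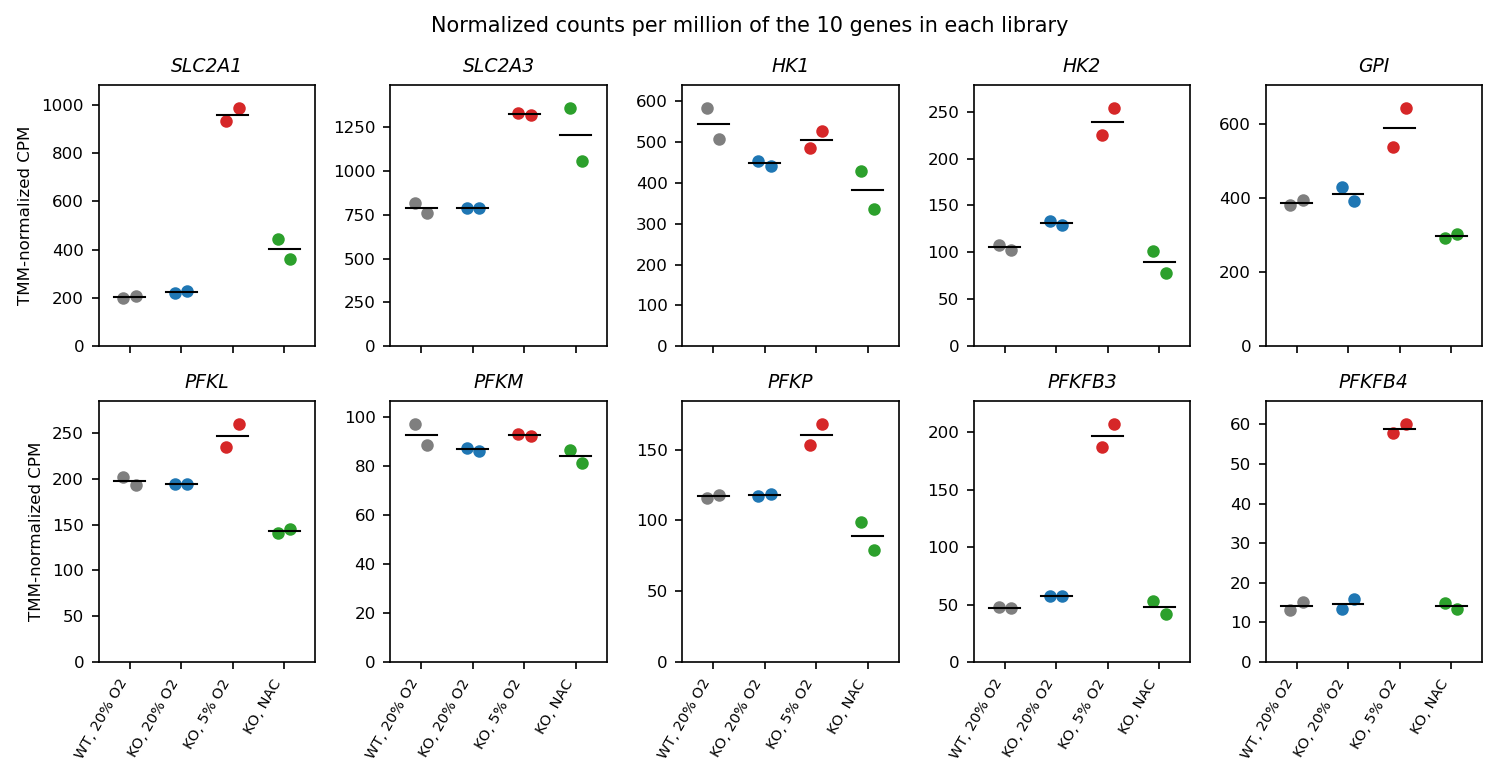
TMM-normalized CPM (y axis, from 0) of each of the 10 genes in the 8 libraries, grouped on the x axis by genotype and treatment. Points are libraries and lines are group means. SLC2A1, PFKFB3 and PFKFB4 at 5% O2 stand above every other library of the gene, and PFKM spans only 81.5 to 97.0 CPM.

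HK1 is the hexokinase of most tissues, and HK2 is the inducible form known from muscle, fat and tumours. HK1 (chromosome 10, from 69270000 to 69401882) was at 583 and 508 CPM in WT, 455 and 443 CPM in KO at 20% O2, 485 and 528 CPM in KO at 5% O2, and 429 and 335 CPM with NAC. Its libraries at 5% O2 lay above those of untreated KO cells, but its log2 fold change of 0.17 (standard error 0.11) did not pass the test (edgeR adjusted p = 0.383). With NAC it was -0.23 (standard error 0.11, edgeR adjusted p = 0.123), and without NAC replicate 1 it was -0.42 (edgeR adjusted p = 0.00495).

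HK2 (chromosome 2, from 74834127 to 74893359) was at 108 and 102 CPM in WT, 133 and 129 CPM in KO at 20% O2, 225 and 254 CPM in KO at 5% O2, and 101 and 78.3 CPM with NAC. The 4 groups did not overlap, with the 5% O2 libraries highest and the NAC libraries lowest. HK2 rose at 5% O2 by a log2 fold change of 0.87 (standard error 0.12, edgeR adjusted p = 0.00329) and fell with NAC by 0.55 (standard error 0.12, edgeR adjusted p = 0.00237). The first call was lost without KO 20% O2 replicate 1 (edgeR adjusted p = 0.0701) or replicate 2 (0.0534). The second was lost with the length and GC trend removed, where the log2 fold change with NAC was -0.15 (edgeR adjusted p = 0.34). Of the 31-base words of the HK2 transcript, 31.7% occurred elsewhere in the genome, so its counts are uncertain. Chromosome X held more of these words than any other chromosome.

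HK2 made up 10.1% ± 0.56 of the summed per-length level of the 2 hexokinases in WT, 14.5% ± 0.03 in KO at 20% O2, 21.6% ± 0.41 in KO at 5% O2 and 12% ± 0.07 with NAC (SD, n = 2). The 4 groups did not overlap, and each comparison had an exact permutation p of 0.333, the smallest possible. HK1 remained the more abundant hexokinase in all 8 libraries. The sum of both was 1.23 times that of untreated KO cells at 5% O2 and 0.83 times with NAC.

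GPI is the only isomerase of this step. GPI (chromosome 19, from 34359718 to 34402413) was at 382 and 395 CPM in WT, 430 and 391 CPM in KO at 20% O2, 537 and 643 CPM in KO at 5% O2, and 291 and 302 CPM with NAC. The 5% O2 libraries lay above and the NAC libraries below all untreated ones. It rose at 5% O2 by a log2 fold change of 0.52 (standard error 0.10, edgeR adjusted p = 0.0127) and fell with NAC by 0.47 (standard error 0.10, edgeR adjusted p = 0.00198). The call at 5% O2 was lost without KO 20% O2 replicate 1 (edgeR adjusted p = 0.11) or replicate 2 (0.139) and without KO 5% O2 replicate 2 (0.0749). With the length and GC trend removed, the log2 fold change with NAC was -0.11 (edgeR adjusted p = 0.367). Of its 31-base words, 27.9% also occurred on alternate or unplaced scaffolds and 18.6% elsewhere in the genome, so its counts are uncertain too.

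PFKL, PFKM and PFKP encode the subunits of phosphofructokinase named after liver, muscle and platelets. PFKL (chromosome 21, from 44300053 to 44327373) was at 202 and 193 CPM in WT, 194 and 194 CPM in KO at 20% O2, 235 and 259 CPM in KO at 5% O2, and 140 and 145 CPM with NAC. PFKP (chromosome 10, from 3067548 to 3136805) was at 116 and 118 CPM, 117 and 118 CPM, 153 and 168 CPM, and 99.1 and 79.1 CPM in the same groups. In both genes the 5% O2 libraries were the highest and the NAC libraries the lowest, with no overlap. PFKM (chromosome 12, from 48105353 to 48146404) was at 97.0 and 88.6 CPM in WT, 87.5 and 86.2 CPM in KO at 20% O2, 92.9 and 92.1 CPM in KO at 5% O2, and 86.4 and 81.5 CPM with NAC, and its NAC libraries overlapped those of untreated KO cells. Part of the PFKM exons, 7.12% of their bases, overlaps SENP1 on the opposite strand.

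PFKL rose at 5% O2 by a log2 fold change of 0.35 (standard error 0.08, edgeR adjusted p = 0.0312) and PFKP by 0.45 (standard error 0.11, edgeR adjusted p = 0.0317), whereas PFKM was at 0.09 (edgeR adjusted p = 0.567). With NAC, PFKL fell by 0.44 (edgeR adjusted p = 0.00112) and PFKP by 0.40 (edgeR adjusted p = 0.00987), and PFKM was at -0.05 (edgeR adjusted p = 0.691). With the trend removed, PFKL and PFKP were both at -0.07 with NAC (edgeR adjusted p = 0.582 and 0.69). The PFKL and PFKP calls at 5% O2 were the least stable of the 8. That of PFKL was lost without KO 20% O2 replicate 1 (edgeR adjusted p = 0.228) or 2 (0.198), KO 5% O2 replicate 1 (0.176) or 2 (0.156), and WT replicate 2 (0.0536). That of PFKP was lost without KO 20% O2 replicate 1 (edgeR adjusted p = 0.228) or 2 (0.188), KO 5% O2 replicate 1 (0.211) or 2 (0.157), and WT replicate 1 (0.0533) or 2 (0.0593). With NAC, the PFKP call was lost without KO 20% O2 replicate 1 (edgeR adjusted p = 0.0532) or 2 (0.0616) and without NAC replicate 2 (0.0528).

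Per length, PFKL was the most abundant of the 3 subunits in every group, at 63.6% ± 0.23 of their sum in WT, 63.9% ± 0.03 in KO at 20% O2, 64.5% ± 0.72 in KO at 5% O2 and 60.6% ± 2.98 with NAC (SD, n = 2). PFKM made up 16.3% ± 0.59, 15.6% ± 0.17, 13.2% ± 0.86 and 19.4% ± 0.31 in the same groups, lowest at 5% O2 and highest with NAC without overlap. PFKP made up 20% ± 0.82, 20.5% ± 0.14, 22.2% ± 0.14 and 20% ± 2.67. The exact permutation test gave p = 0.333 for PFKM in each treatment against untreated KO cells, the smallest possible. The summed level of the 3 genes was 1.26 times that of untreated KO cells at 5% O2 and 0.78 times with NAC. The mean transcript length of PFKL was short, and by the longest transcript it made up 52.3% in KO at 20% O2, still the largest share.

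**Figure D3:**
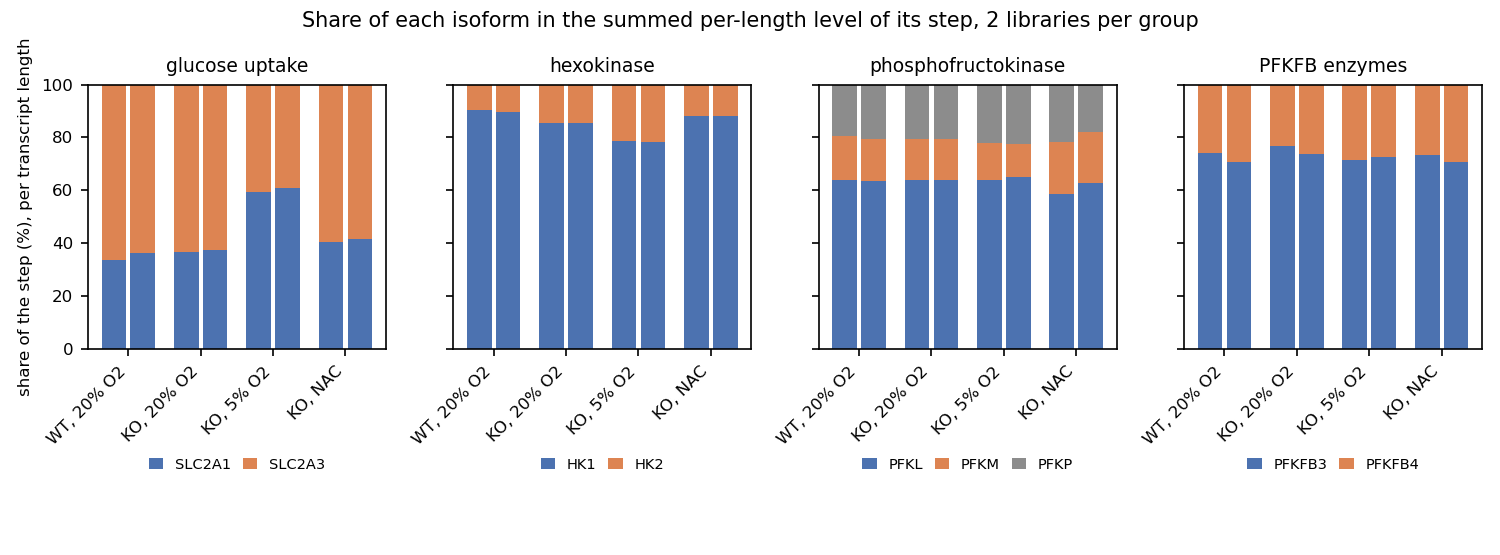
Share (%, y axis) of each gene in the summed per-length level of its step, as stacked bars for the 2 libraries of each group (x axis). SLC2A1 grows from 37.1% to 60.2% and HK2 from 14.5% to 21.6% from KO cells at 20% O2 to KO cells at 5% O2, while the phosphofructokinase and PFKFB shares differ by at most 3.2 percentage points.

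PFKFB3 and PFKFB4 both make fructose 2,6-bisphosphate, and PFKFB3 is known for its very high ratio of kinase to phosphatase activity. PFKFB3 (chromosome 10, from 6144921 to 6326637) was at 48.0 and 47.1 CPM in WT, 57.6 and 58.0 CPM in KO at 20% O2, 187 and 207 CPM in KO at 5% O2, and 53.6 and 41.9 CPM with NAC. PFKFB4 (chromosome 3, from 48517684 to 48563136) was at 13.1 and 15.2 CPM, 13.4 and 16 CPM, 57.8 and 60 CPM, and 15.0 and 13.5 CPM in the same groups. Only the 5% O2 libraries stood apart in PFKFB4, and in PFKFB3 the NAC libraries also lay below those of untreated KO cells. PFKFB3 rose at 5% O2 by a log2 fold change of 1.77 (standard error 0.12, edgeR adjusted p = 1.73e-05) and PFKFB4 by 2.0 (standard error 0.13, edgeR adjusted p = 1.73e-05). They had the 4th and 5th smallest p of all genes. With NAC, PFKFB3 was at -0.27 (standard error 0.12, edgeR adjusted p = 0.0755) and PFKFB4 at -0.05 (standard error 0.13, edgeR adjusted p = 0.806). PFKFB3 with NAC was called lower by DESeq2 (-0.30, adjusted p = 0.0355) and without the filter on low counts (-0.28, edgeR adjusted p = 0.0337). The PFKFB3 value was -0.47 without NAC replicate 1 (edgeR adjusted p = 0.00269) and 0.11 with the length and GC trend removed (edgeR adjusted p = 0.536).

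PFKFB3 made up 72.3% ± 2.38 of the summed per-length level of the pair in WT, 75.3% ± 2.28 in KO at 20% O2, 72.1% ± 0.91 in KO at 5% O2 and 72% ± 2.03 with NAC (SD, n = 2). The difference between 5% O2 and untreated KO cells was -3.2 percentage points (exact permutation p = 0.333, the smallest possible), against a pooled SD of 1.74. The sum of the pair was 3.56 times that of untreated KO cells at 5% O2, the largest ratio of the 5 steps, and 0.86 times with NAC. The 4.88% of PFKFB4 exonic bases that overlap UCN2 lie on the same strand.

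By mean transcript length, the order of the per-length levels also changed with oxygen. In KO cells at 20% O2 the order was SLC2A3 (196 CPM per kilobase), HK1 (142), PFKL (128), GPI (117), SLC2A1 (116), PFKP (41.1), PFKM (31.2), HK2 (24.1), PFKFB3 (20.4) and PFKFB4 (6.72). GPI and SLC2A1 differed by less than their SDs of 7.78 and 3.82 CPM per kilobase. At 5% O2 it was SLC2A1 (498), SLC2A3 (330), GPI (169), PFKL (163), HK1 (160), PFKFB3 (69.7), PFKP (56.0), HK2 (43.9), PFKM (33.2) and PFKFB4 (26.9). GPI, PFKL and HK1 differed by less than the GPI SD of 21.4 CPM per kilobase. Both orders depend on the length used. At 5% O2, SLC2A3 stayed above SLC2A1 by the longest transcript (52.6% and 47.4% of their sum) and by coding length (57.8% and 42.2%). PFKL has a mean length of 1518 bases and a longest transcript of 2907 bases, so its place depends on that choice too.

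The 2 treatments were also compared with each other, although their lengths may have differed and the oxygen level of the NAC libraries is not labelled. Any effect of either cannot be told apart from the treatments. Against KO cells at 5% O2, 8 of the 10 genes were lower with NAC and none was higher, where 13.6% of all genes were called lower and 15.5% higher. By the second criterion, 4 passed, all lower, where 4.42% of all genes passed in either direction. PFKFB4 and PFKFB3 fell by 2.05 and 2.04 on the log2 scale (edgeR adjusted p = 2.4e-05 and 1.53e-05), and PFKFB3 had the smallest p of all genes. HK2 fell by 1.42 (edgeR adjusted p = 8.5e-05), SLC2A1 by 1.25 (7.73e-05), GPI by 0.99 (0.000214), PFKP by 0.85 (0.000487) and PFKL by 0.79 (0.000253). HK1 fell by 0.41 (edgeR adjusted p = 0.0206), a call lost without KO 5% O2 replicate 1 (0.0535), without KO 5% O2 replicate 2 (0.172), without NAC replicate 2 (0.0921) and with the trend removed (-0.25, 0.155). SLC2A3 differed by -0.14 (standard error 0.10, edgeR adjusted p = 0.364) and PFKM by -0.14 (standard error 0.09, edgeR adjusted p = 0.262). Without NAC replicate 1 the SLC2A3 difference was -0.33 (edgeR adjusted p = 0.0163), and without NAC replicate 2 it was 0.03 (edgeR adjusted p = 0.811).

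**Figure D4:**
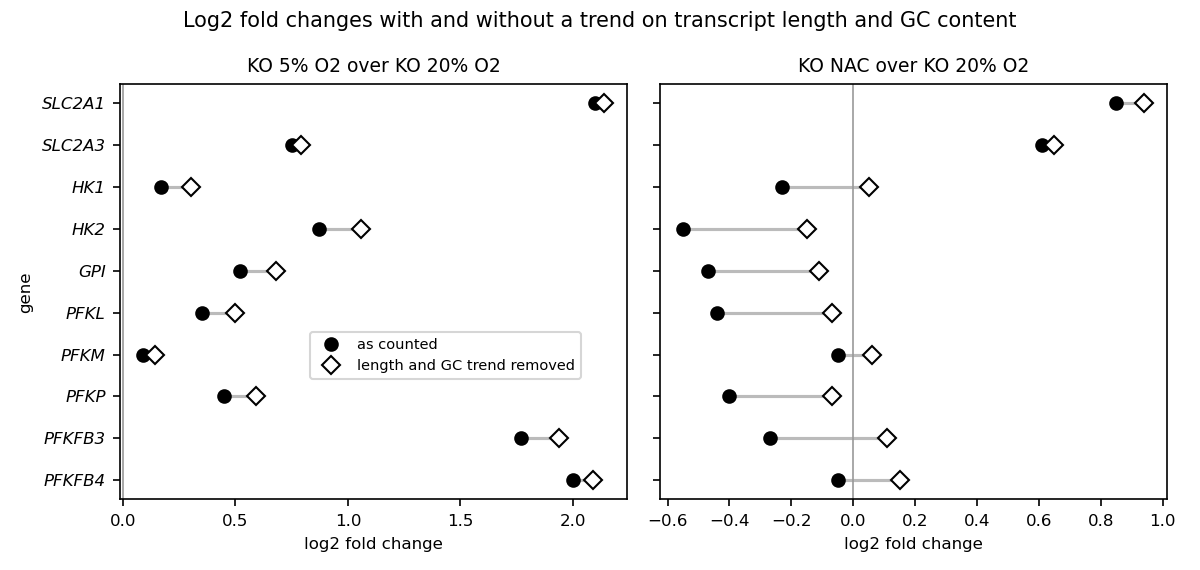
Log2 fold change (x axis) of the 10 genes (y axis) at 5% O2 and with NAC against untreated KO cells, as counted (filled circles) and after the trend with length and GC content was removed (open diamonds). At 5% O2 every value moves up, and with NAC HK1, PFKM, PFKFB3 and PFKFB4 cross 0.

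With NAC, the values of all 10 genes moved up once the trend was removed. SLC2A1 went from 0.85 to 0.94 and SLC2A3 from 0.61 to 0.65, and their edgeR adjusted p were 0.000201 and 0.000997. HK1, PFKM, PFKFB3 and PFKFB4 went from negative values to 0.05, 0.06, 0.11 and 0.15 and did not pass the test either way. The lower levels of HK2, GPI, PFKL and PFKP with NAC thus rest on counts without that correction. Without NAC replicate 1, the SLC2A1 value was 0.69 and the SLC2A3 value 0.42, and both were still called higher.

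The genotype itself went with small differences. HK2 was at 105 ± 3.82 CPM in WT and 131 ± 2.83 CPM in KO cells (SD, n = 2), a log2 fold change of 0.32 (unadjusted p = 0.0177, edgeR adjusted p = 0.18). PFKFB3 was at 47.5 ± 0.651 CPM and 57.8 ± 0.255 CPM, a log2 fold change of 0.28 (edgeR adjusted p = 0.232). HK1 was at 546 ± 53.2 CPM and 449 ± 8.70 CPM, a log2 fold change of -0.28 (edgeR adjusted p = 0.229). WT and KO libraries did not overlap in these 3 genes, with HK2 and PFKFB3 higher and HK1 lower in KO. They did not overlap in SLC2A1 and PFKM either, at log2 fold changes of 0.14 and -0.10. Groups of 2 libraries that do not overlap give an exact permutation p of 0.333, so this alone shows little. The share of all tested genes without overlap was not counted in any comparison. HK2 passed in a fit of the 4 libraries alone (edgeR adjusted p = 0.0279) and without the filter on low counts (0.0346). It was also called with either NAC library left out, and its log2 fold change was 0.32 in each of these fits. Calls over all genes rose in all these settings as well. In the fit of the 4 libraries and without the filter, they went from 213 higher and 99 lower to 738 and 386, and to 782 and 470, respectively. For the other genes the log2 fold change lay between -0.10 and 0.14.

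Lists of related genes were counted in the same fit, and called counts are given against untreated KO cells. Over all tested genes, 3.68% were called higher and 4.13% lower at 5% O2, and 23.8% higher and 20.8% lower with NAC. The counts below of 2 of 10 transporters and 2 of 7 other kinases and control genes higher with NAC were near that share. They are thus not particular to these lists. At 5% O2, calls over all genes fell without any library of that comparison and rose without either NAC library. List counts at 5% O2 with a library left out are therefore not particular to a list. Of 10 tested other glucose transporters, SLC2A13 and SLC2A14 rose at 5% O2, with log2 fold changes of 0.60 and 0.59 (edgeR adjusted p = 0.0403 and 0.0178), and SLC2A12 and SLC2A14 rose with NAC, at 0.86 and 0.41 (edgeR adjusted p = 0.00916 and 0.0146). At 5% O2 neither was called when any 1 of the 4 libraries compared was left out. With NAC neither was called without KO 20% O2 replicate 1 or without NAC replicate 1, and 1 was called without KO 20% O2 replicate 2. Of 7 tested other hexose kinases and upper control genes, none was called at 5% O2 by edgeR's adjusted p, and 2 were called higher when either NAC library was left out. Among them PFKFB2, the heart form of the PFKFB enzymes, was at -0.06, and TIGAR, which breaks down fructose 2,6-bisphosphate, was at 0.10. With NAC the ADP-dependent glucokinase gene ADPGK and the arrestin-like ARRDC4 rose by 0.71 and 0.82 (edgeR adjusted p = 0.000324 and 0.0289), and 1 to 4 of the 7 were called higher when single libraries were left out, 4 of them without NAC replicate 2. TXNIP, an inhibitor of glucose uptake, had a log2 fold change of 1.36 at 5% O2 (edgeR adjusted p = 0.135), with libraries at 9.59 and 6.20 CPM against 3.5 and 2.67 CPM. HK3, GCKR, HKDC1, PFKFB1 and FBP2 were too low to be tested, and none exceeded 0.249 CPM in any library.

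Of 14 tested genes of lower glycolysis and lactate export, 10 rose at 5% O2 with a list median of 0.81, and 8 rose and 1 fell with NAC with a list median of 0.40. With the trend removed, 9 rose at 5% O2, and 5 rose and 1 fell with NAC with a median of 0.09. Without NAC replicate 1, 7 rose and 3 fell with NAC. Against KO cells at 5% O2, 11 of the 14 were lower with NAC and 1 was higher. The lactate exporter gene SLC16A3 had the largest value of this list at 5% O2, from 18.0 and 17.8 CPM to 140 and 161 CPM (log2 fold change 3.07, edgeR adjusted p = 0.000452), and was at 23.9 and 8.72 CPM with NAC. Of 21 genes that branch off at glucose 6-phosphate, 4 rose at 5% O2, among them GBE1 and PGM1 of glycogen metabolism (1.51 and 1.14). With NAC, 9 of the 21 rose and 5 fell, and the 5 were near the 20.8% of all genes called lower. The 4 calls at 5% O2 were lost without either KO library at 20% O2 or KO 5% O2 replicate 1, and there were 7 without either NAC library.

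Of 21 HIF target genes outside the 10, 14 rose at 5% O2 with a list median of 1.49, and 12 rose and 1 fell with NAC with a list median of 0.63. At 5% O2, 9 were called without KO 5% O2 replicate 1. With NAC, 6 rose without either KO library at 20% O2, and 7 rose without NAC replicate 1, where the list median was 0.06. DDIT4 and LOX, with the largest values of the list with NAC (2.36 and 1.68), were at -0.20 and 0.15 without that library (edgeR adjusted p = 0.196 and 0.761). Of 13 transcription factors that regulate glycolytic genes, none rose and only MLXIP, a glucose-sensing factor, fell at 5% O2, by 0.51 (edgeR adjusted p = 0.021). HIF1A mRNA had a log2 fold change of 0.07 at 5% O2 (edgeR adjusted p = 0.714) and 0.02 with NAC (edgeR adjusted p = 0.907). With NAC 1 of the 13 rose and 5 fell, and MLXIP and KLF4 fell most, by 1.40 and 1.06 (edgeR adjusted p = 1.43e-05 and 0.0101). Without NAC replicate 1, 8 fell, and without either KO library at 20% O2, 3 fell. The MLXIP call at 5% O2 was lost without either KO library at 20% O2, without KO 5% O2 replicate 1 and with the trend removed.

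The genes whose pattern over the 8 libraries was most like that of a member were found by the root mean square difference of centred log2 CPM, among 12363 genes. For SLC2A1 they were PPP1R3C (0.151), a glycogen-targeting subunit of protein phosphatase 1, LDHA (0.168) and EGLN1 (0.263), a prolyl hydroxylase that senses oxygen. For SLC2A3 they were RLF (0.0642), SLC2A14 (0.0931) and RIOK3 (0.0933). For HK2 they were HEY1 (0.182), STC2 (0.189) and FGF11 (0.190). BHLHE40, a transcriptional repressor, was the nearest gene to both PFKFB3 (0.147) and PFKFB4 (0.213). EGLN1 was among the 3 nearest genes to SLC2A1, PFKFB3 and PFKFB4, and no statement on shared control follows from such likeness.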

How the data were processed

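RNA-sequencing of 8 libraries (4 groups of 2) was analysed out of 12 samples in the labels. Trimming by the authors used trim-galore and quality checks FastQC 0.11.9 (per the labels). Alignment was to hg38 by hisat2, and featureCounts was run at its defaults, which ignore strand and drop a read with several matches or one shared by overlapping genes. The deposited values are raw counts, not normalized, and the annotation is not given in the sources used here. The authors called genes with DESeq2.

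From the deposited counts, genes were kept by edgeR's filterByExpr (minimum count 10), scaled by TMM and tested in 1 quasi-likelihood fit (edgeR 4.0.16, R 4.3.3) with a term per group and no block, giving 4 residual degrees of freedom. P-values were adjusted by Benjamini-Hochberg over 15916 genes, calls use an adjusted p under 0.05, and a second criterion (unadjusted p under 0.05 with a fold change over 1 on the log2 scale, either way) follows the paper. CPM use TMM-scaled totals. Totals of 31236968 to 41639350 counts per library and a biological coefficient of variation of 13.7% set the precision. The 10 genes and all gene lists were chosen with earlier results of these data known. Named genes are the 10 members, SLC2A14, UBQLN1, the nearest genes in pattern, and in other lists genes past an absolute log2 fold change of 1 (at most 5 per list). SLC2A12, SLC2A13, ADPGK, ARRDC4, PFKFB2, TIGAR, TXNIP, the genes too low to test, COL3A1, DCN and HIF1A were named after their values were seen. So were NES, KDR, THY1 and COL1A2.

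Lengths are means over complete protein-coding transcripts of GENCODE 44, and 93.2% of tested genes had a length and GC content. Shares were compared by exact permutation tests. Words of 31 bases were counted in the hg38 sequence. Promoters are RefSeq windows of GRCh38.p14. Alternatives were DESeq2 1.42.0, RLE and upper quartile scaling, 2 other filters, only the 4 libraries compared, a replicate block, removal of a smooth trend on length and GC (mgcv 1.9.3), other lengths, and leaving out each library. On simulated counts for the 5% O2 comparison (15566 genes), 71 of 100 genes changed by log2 1 and 97 of 100 changed by log2 2 were recovered, and 9 unchanged genes were called. Differences between replicates 1 and 2 hardly correlated between groups (-0.02 to 0.08 over all tested genes), so no strong pairing by replicate number was seen. Whether libraries of equal number share a clone or batch cannot be told from this.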

Additional observations from a re-analysis of the deposited data

How the results depend on the processing

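Counts of called members stayed within 1.5 times of the reported count in 71 results under other settings and in 58 with a library left out, and moved further in 7 and 6. A reported count of 0 that stayed at 0 was among those taken as unchanged, so these tallies alone say little about stability. At 5% O2, 3 members were called by fold change over 1 and unadjusted p, and 3 to 8 when single libraries were left out. With NAC, 0 were higher and 0 lower by that criterion, and 0 were lower with the length and GC trend removed. Against 5% O2, 4 were lower with NAC by that criterion. In KO against WT, 1 was higher (HK2) without the filter on low counts and in a fit of the 4 libraries compared. HK2 was called with either NAC library left out too, and calls over all genes also rose in all these settings. The cause of these changes was not tested.

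Some values changed sign, and none passed the test with its sign changed. In KO against WT, SLC2A3 was at -0.02 and PFKP at -0.02 with upper quartile scaling, and at -0.03 and -0.05 with the trend removed. With NAC, HK1, PFKM, PFKFB3 and PFKFB4 were at 0.05, 0.06, 0.11 and 0.15 with the trend removed. On the negative side, HK1 with NAC passed without the filter on low counts (-0.24, edgeR adjusted p = 0.0399) and PFKFB3 passed there (-0.28, 0.0337) and by DESeq2 (-0.30, adjusted p = 0.0355), and the values of both and of SLC2A3 that passed without NAC replicate 1 stand above. With single libraries left out, the KO against WT values ranged from -0.05 to 0.06 for SLC2A3, from -0.05 to 0.01 for PFKL, from -0.00 to 0.02 for PFKP and from -0.08 to 0.18 for PFKFB4 (-0.04 without WT replicate 1). With NAC, PFKFB4 ranged from -0.17 to 0.09 (0.03 without NAC replicate 2), and SLC2A3 in NAC against 5% O2 from -0.33 to 0.03.

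Differences in isoform share, in percentage points, moved with the length used. By longest transcript, coding length and counts without length, HK2 differed by 5.1, 6.5 and 6.4 in KO against WT, by 7.9, 9.5 and 9.4 at 5% O2 and by -2.9, -3.7 and -3.6 with NAC. SLC2A1 differed by 21.4, 20 and 19.9 at 5% O2, and by 3.1 with NAC by coding length and by counts. PFKM differed by -3.0 and -3.2 at 5% O2 by the last 2 lengths, and by 4.5, 4.6 and 4.8 with NAC. PFKP differed by 2.4, 2.4 and 2.6 at 5% O2.

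A replicate block left the counts of called members at 8 higher at 5% O2, 2 higher and 4 lower with NAC, and 8 lower against 5% O2. With a replicate block among KO libraries alone, PFKP at 5% O2 was at 0.44 (edgeR adjusted p = 0.0558), and no other call of a member changed. Calls over all genes at 5% O2 were 586 higher and 657 lower as reported, 1081 and 1063 by DESeq2, and 1466 and 1543 in a fit of the 4 libraries compared. With 2 libraries per group and each treatment made in KO cells only, effects of genotype and treatment on one another cannot be told apart here.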
